A study of Homo sapiens with 6 samples.

Results

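The genes described here encode RNA methyltransferases of the METTL, NSUN, TRMT, FTSJ and MRM families and pseudouridine synthases of the PUS family. They were taken by gene symbol from the platform annotation, which names 56 such genes among 20045, and a gene entered if a probe had a detection p below 0.05 across the 3 vehicle or the 3 NU7441 arrays. This left 45 members of 9342 genes tested, each read by its brightest detected probe. The samples are HCT116 cells, a human colorectal carcinoma line, in 2 groups of 3 arrays each. One group was given 0.1% (v/v) DMSO as vehicle and the other 40 µM NU7441, which inhibits the kinase DNA-PK, both for 48 h. The labels name no other agent or allele, and nothing in them tells if a group's samples came from separate cultures, so p-values cover only the spread of these 6 samples and that spread may be technical.

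Chemical marks on RNA are placed after transcription. Methyltransferases move a methyl group from S-adenosylmethionine to a base or to the ribose, and pseudouridine synthases turn uridine into its isomer without a cofactor. Transfer RNA and ribosomal RNA carry most of these marks, which steady their fold and tune decoding, and mitochondria use their own set of nuclear-encoded enzymes. The best known mark of messenger RNA is N6-methyladenosine, written by the METTL3 and METTL14 heterodimer.

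The family name is wider than the label. Of the 45 members, 11 have no assigned RNA substrate in the grouping used, namely 9 METTL genes that act on proteins or whose substrate is not assigned and the 2 transcribed pseudogenes NSUN5P1 and NSUN5P2. NSUN5P1 and NSUN5P2 are near-identical copies of NSUN5, so their probes and those of NSUN5 may share signal. The other 34 members act on RNA or serve an enzyme that does.

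The arrays were similar in depth, with 16593 to 17788 of 47323 probes detected and a median signal of 72.8 to 75.3. Arrays of 1 group correlated at 0.984 to 0.993 across genes, and arrays of different groups at 0.955 to 0.964. Of 7 colon epithelium markers 6 were detected on every array, VIL1 on none, and CDH1 rose (0.52, adjusted p = 0.00394). None of 3 endothelial markers was detected on any array. Of 5 fibroblast markers 3 were detected on no array, COL3A1 on 1 and COL1A1 on 5 of 6, with no call for COL1A1 (0.13, adjusted p = 0.448). Of 3 leukocyte markers with a probe CD68 was detected on every array, with no call between the groups (0.11, adjusted p = 0.539). Changes are log2 fold changes, NU7441 minus vehicle, ± the standard error (SE) of the fit, with n = 3 in each group. Adjusted p-values come from limma with Benjamini-Hochberg correction over all 9342 genes, and the threshold was 0.05. All levels are log2 intensities, and the number of arrays limits their precision. In RNA from a whole culture, fewer cells with a transcript and less transcript per cell cannot be told apart, and the arrays measure the enzymes' transcripts, not the marks on RNA.

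NU7441 lowered the transcripts of 15 of the 45 members and raised 6, and 24 did not pass the threshold. Among the 15, METTL16 and METTL6 were kept only through the vehicle arrays, where they are higher, a filter that favours falls. Over all genes 19.7% were called lower, 18.7% higher and 38.5% in either direction, against 33.3%, 13.3% and 46.7% of the members. With 75th percentile scaling in place of quantile normalization, 1255 of all genes were higher and 2238 lower, where the main setting gave 1747 and 1845, and 4 members were higher and 16 lower. The falls were led by the pseudouridine synthase PUS1, the tRNA guanosine methyltransferase TRMT1, the mitochondrial rRNA ribose methyltransferase MRM3 and the mRNA adenosine methyltransferase METTL3. Of the 6 rises, 5 lay among the 9 METTL genes without an assigned RNA substrate, and the remaining 1 was TRMT5. Only METTL27 and METTL22 of these rises kept their call under every alternative given at the end, and METTL21A rose with its brightest probe alone. Among the 34 members tied to RNA, 13 were lower and 1 was higher, with a median of -0.21, a subset set apart after the values were seen. The median over the 45 members was -0.16 and that over all genes 0.00. In 26 members, or 57.8%, the arrays of the groups did not overlap, 17 with NU7441 below and 9 above, and over all genes the share was 49.9%.

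**Figure D1:**
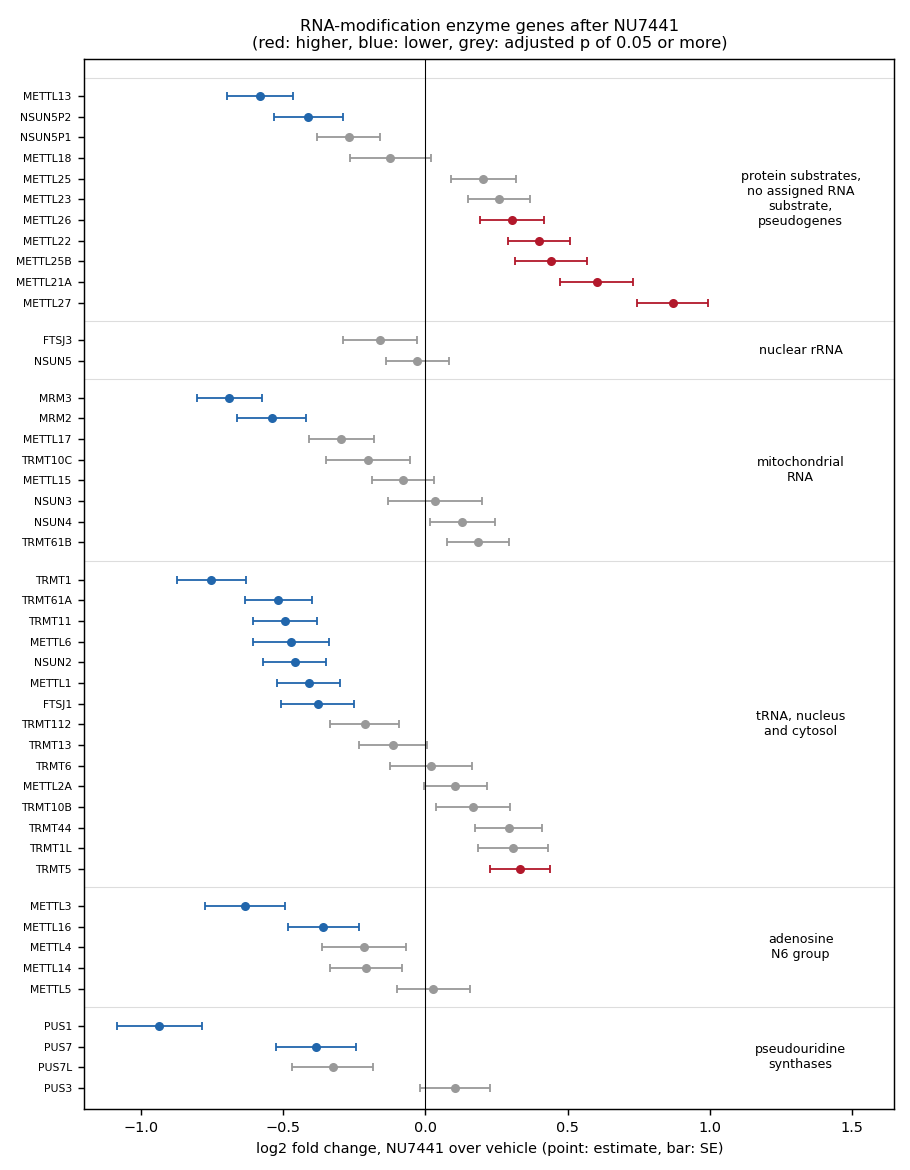
Log2 fold change (horizontal axis) of each of the 45 members (vertical axis, grouped by role), points with SE bars from the limma fit. Blue members were lower and red members higher at an adjusted p below 0.05. PUS1 lies farthest left, at -0.94, and METTL27 farthest right, at 0.87.

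Promoter windows are shown for 3 members that fell and for 1 that did not pass, to set their letters side by side. RefSeq promoters of build GRCh38.p14 were matched for 36 of the 45 members, and the 250 bases before the annotated start were searched for 4 motifs on both strands. The letters CCGGAAG, the core bound by ETS family factors, stood in 13 of 36 member windows, or 36.1%, in 17.2% of the windows of 7635 genes tested and in 8.82% of all 27305 promoters. Among members with a window they stood in 5 of 11 that fell, 7 of 21 that did not pass and 1 of 4 that rose. The windows of METTL3 (chr14:21511341-21511590, minus strand), TRMT11 (chr6:125986290-125986539, plus strand) and TRMT61A (chr14:103528946-103529195, plus strand) hold no other annotated gene. The window of NSUN5 (chr7:73308827-73309076, minus strand) holds none either, and NSUN5 did not pass the threshold. Each is written 5′ to 3′ on the gene's strand, and capitals mark the motif or its reverse complement.
METTL3: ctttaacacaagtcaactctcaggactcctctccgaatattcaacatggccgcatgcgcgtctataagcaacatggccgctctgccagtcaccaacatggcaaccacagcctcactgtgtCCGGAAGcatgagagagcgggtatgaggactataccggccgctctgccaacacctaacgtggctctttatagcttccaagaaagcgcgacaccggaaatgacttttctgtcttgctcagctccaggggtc
TRMT11: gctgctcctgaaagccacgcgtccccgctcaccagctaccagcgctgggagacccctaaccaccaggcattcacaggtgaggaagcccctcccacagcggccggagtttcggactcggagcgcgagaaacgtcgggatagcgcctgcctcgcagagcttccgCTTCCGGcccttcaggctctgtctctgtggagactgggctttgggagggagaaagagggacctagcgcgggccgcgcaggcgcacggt
TRMT61A: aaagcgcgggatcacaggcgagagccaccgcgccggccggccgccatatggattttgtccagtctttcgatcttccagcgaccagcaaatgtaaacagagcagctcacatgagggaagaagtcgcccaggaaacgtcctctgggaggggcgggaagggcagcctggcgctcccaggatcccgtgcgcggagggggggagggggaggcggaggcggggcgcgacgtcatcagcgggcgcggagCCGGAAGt
NSUN5: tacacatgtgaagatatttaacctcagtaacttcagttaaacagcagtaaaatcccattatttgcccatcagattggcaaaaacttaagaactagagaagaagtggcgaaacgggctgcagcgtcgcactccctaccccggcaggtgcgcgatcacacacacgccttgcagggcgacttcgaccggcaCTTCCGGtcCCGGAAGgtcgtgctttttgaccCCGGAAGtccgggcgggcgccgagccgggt
The motif begins 130 bases before the start in METTL3, 88 in TRMT11 and 8 in TRMT61A, and NSUN5 has 3 copies, at 62, 53 and 30. The E-box CACGTG, which MYC and MAX bind, was in 0 of the 11 windows of members that fell and in 1 of 36 member windows, that of METTL21A, against 9.38% of the genes tested. The letters GCGCATGCG of the NRF1 core were in 1 of 36 member windows, or 2.78%, against 3.50% of the genes tested, and the CCAAT box, CCAAT, in 30.6%, against 36.4%. A match or its absence describes these letters in this window only.

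The pseudouridine synthases were read by 4 of their 5 named genes, and 2 were lower, or 50%, against 19.7% of all genes. PUS1, which modifies tRNAs in the nucleus and the mitochondria and also mRNAs, read 8.53, 8.79 and 8.87 on the vehicle arrays and 7.90, 8.05 and 7.43 on the NU7441 arrays. The groups were well apart, and NU7441 replicate 3 was the lowest. The change was -0.94 ± 0.15 (SE, adjusted p = 0.000198), the largest fall among the members, and a second probe of PUS1 was at -0.68 ± 0.13 (adjusted p = 0.00116 over all detected probes). PUS7, which modifies tRNAs and mRNAs, read 7.85, 7.91 and 7.93 with vehicle and 7.59, 7.78 and 7.16 with NU7441. Its arrays did not overlap, and here too NU7441 replicate 3 stood below the others. The change was -0.38 ± 0.14 (adjusted p = 0.0409). It did not pass without any 1 of the vehicle arrays (adjusted p = 0.0739, 0.104 and 0.109 without replicates 1, 2 and 3) or without NU7441 replicate 3, where it was -0.21 (adjusted p = 0.158). PUS7L, a paralog of PUS7, was at -0.33 ± 0.14 (adjusted p = 0.0842) with overlapping arrays, and at -0.51 (adjusted p = 0.00854) without NU7441 replicate 2. PUS3, which acts on the tRNA anticodon arm, was at 0.10 ± 0.12 (adjusted p = 0.524).

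Of the adenosine methyltransferases METTL3, METTL14, METTL16, METTL4 and METTL5, 2 were lower, or 40%, against 19.7% of all genes. METTL16, 1 of the 2, was kept only through the vehicle arrays, where it is higher, a filter that favours falls. METTL3, the catalytic subunit of the mRNA N6-methyladenosine writer, read 6.78, 6.96 and 6.73 with vehicle and 5.84, 6.31 and 6.41 with NU7441. Every NU7441 array lay below every vehicle array, replicate 1 farthest. The change was -0.64 ± 0.14 (adjusted p = 0.00252). METTL14, its RNA-binding partner, read 5.15, 5.34 and 5.19 with vehicle and 5.23, 4.81 and 5.01 with NU7441, so the groups overlapped, and its change was -0.21 ± 0.13 (adjusted p = 0.201). METTL16, which methylates U6 small nuclear RNA and the mRNA of MAT2A, was at -0.36 ± 0.13 (adjusted p = 0.0332), near background with 1 of 3 NU7441 arrays detected. Leaving out vehicle replicate 2 or 3 gave adjusted p = 0.0879 and 0.122, and leaving out NU7441 replicate 1 or 3 gave 0.121 and 0.0582. It also missed the threshold without background correction, at -0.11 (adjusted p = 0.133). METTL4, which acts on U2 small nuclear RNA, was at -0.22 and METTL5, which methylates an adenosine of 18S rRNA, at 0.03, and neither passed. METTL5 was at -0.16 with 75th percentile scaling, and its sign also turned without NU7441 replicate 2 or 3, at -0.02 and -0.07.

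Of 15 listed accessory, eraser and reader genes of N6-methyladenosine 9 were tested, with 2 lower, or 22.2% against 19.7% of all genes, 0 higher and a median of -0.11. RBM15, an adaptor that brings the writer to RNA, was at -0.41 ± 0.11 (adjusted p = 0.0081). CBLL1, a ring finger protein of the complex, was at -0.39 ± 0.12 (adjusted p = 0.0176), and missed the threshold when vehicle replicate 2 was left out (adjusted p = 0.0682) and as the mean of its detected probes, at -0.21 (adjusted p = 0.1). The scaffold genes WTAP and VIRMA, at 0.11 and -0.11, did not pass.

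The largest group was that of tRNA methyltransferases of the nucleus and cytosol, where 7 of 15 tested were lower and 1 was higher. These were 46.7% and 6.67%, against 19.7% and 18.7% of all genes. TRMT1, which places dimethylguanosine in tRNAs, read 7.44, 7.46 and 7.59 with vehicle and 6.79, 6.90 and 6.53 with NU7441, a clear gap. Its change was -0.75 ± 0.12 (adjusted p = 0.000194). Its paralog TRMT1L went the other way in value, at 0.31 ± 0.12 (adjusted p = 0.0589), without passing, and it passed without vehicle replicate 3 (0.39, adjusted p = 0.0465) or NU7441 replicate 2 (0.39, adjusted p = 0.0368). A dimmer TRMT1L probe was at 0.33 (adjusted p = 0.0312 over all detected probes), and the mean of both probes passed (0.32, adjusted p = 0.0282). That dimmer probe was detected on 0 vehicle and 3 NU7441 arrays. It was kept only through the group where it is higher, so neither value is separate support for a rise. TRMT61A, the catalytic subunit of the enzyme that methylates adenosine in the tRNA T loop, read 5.0, 5.20 and 4.93 with vehicle and 4.64, 4.43 and 4.51 with NU7441. All 3 NU7441 arrays were lower, at -0.52 ± 0.12 (adjusted p = 0.0028), with a dim signal. The change was -0.15 at its smallest over the alternatives given at the end. TRMT6, the non-catalytic subunit of that enzyme, was at 0.02 ± 0.14 (adjusted p = 0.929), detected on 1 of 3 vehicle arrays. The sign of TRMT6 turned in 4 alternatives, so it has no settled direction.

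NSUN2, which makes 5-methylcytosine in many tRNAs and in mRNAs, read 9.58, 9.49 and 9.51 with vehicle and 8.94, 9.12 and 9.13 with NU7441. The vehicle arrays were tight and all above the NU7441 arrays, and the change was -0.46 ± 0.11 (adjusted p = 0.00423). METTL1, the catalytic subunit of the tRNA 7-methylguanosine enzyme, was at -0.41 ± 0.11 (adjusted p = 0.00857), and a second METTL1 probe was at -0.27 (adjusted p = 0.0761 over all detected probes). WDR4, the other subunit of that enzyme and not a member by symbol, read 7.61, 7.60 and 7.76 with vehicle and 6.48, 6.39 and 6.20 with NU7441. Both subunits were thus lower, WDR4 at -1.30 ± 0.12 (adjusted p = 1.07e-06). As the mean of its detected probes WDR4 was at -0.92 (adjusted p = 6.12e-05), a smaller fall than that of its brightest probe. METTL6, a 3-methylcytosine enzyme of serine tRNAs, was at -0.47 ± 0.13 (adjusted p = 0.0116), with 2 of 3 NU7441 arrays detected, and its call was lost when vehicle replicate 2 was left out (adjusted p = 0.0788). METTL6 was kept only through the vehicle arrays, where it is higher, and is counted among the group's falls.

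TRMT11, which methylates a guanosine at the base of the tRNA D arm, read 7.07, 6.89 and 6.82 with vehicle and 6.37, 6.49 and 6.45 with NU7441, a change of -0.49 ± 0.11 (adjusted p = 0.00305). It works with TRMT112, a small activator shared by several methyltransferases. TRMT112 read 10.16, 10.43 and 10.41 with vehicle and 9.96, 10.17 and 10.23 with NU7441, with overlap and no call (-0.21 ± 0.12, adjusted p = 0.174). Of other known TRMT112 partners, the 18S rRNA enzyme BUD23 was at -0.67 (adjusted p = 0.000346), the snRNA enzyme THUMPD2 at -0.72 (adjusted p = 0.000236) and the wobble uridine enzyme ALKBH8 at -0.50 (adjusted p = 0.00346). ALKBH8 was detected on 3 vehicle and 1 NU7441 arrays, so it was kept only through the group where it is higher. Without background correction ALKBH8 was at -0.14 (adjusted p = 0.0431). THUMPD3 and METTL5, at 0.03 each, did not pass. The activator's partners therefore differed among themselves in whether they passed, and differences between them were not tested.

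FTSJ1, which methylates riboses of the tRNA anticodon loop, was at -0.38 ± 0.13 (adjusted p = 0.0277), with NU7441 arrays from 6.14 to 6.61 below the vehicle arrays. Leaving out vehicle replicate 1, 2 or 3 gave adjusted p = 0.0792, 0.0504 and 0.0904, and leaving out NU7441 replicate 1 or 2 gave 0.121 and 0.0501. A second FTSJ1 probe was at -0.18 (adjusted p = 0.243 over all detected probes). TRMT5, which methylates the guanosine next to the anticodon and guards the reading frame, was the group's single rise. It read 9.95, 9.97 and 9.95 with vehicle and 10.29, 10.28 and 10.30 with NU7441, the tightest arrays of any rise. The change was 0.33 ± 0.11 (adjusted p = 0.0208), and it missed the threshold without vehicle replicate 1, 2 or 3 (adjusted p = 0.0654, 0.0522 and 0.065) and with 75th percentile scaling (0.28, adjusted p = 0.0687). The remaining members of the group did not pass, namely TRMT44 at 0.29, TRMT10B at 0.17, METTL2A at 0.10 and TRMT13 at -0.11. TRMT44 passed without vehicle replicate 3, at 0.38 (adjusted p = 0.0386).

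**Figure D2:**
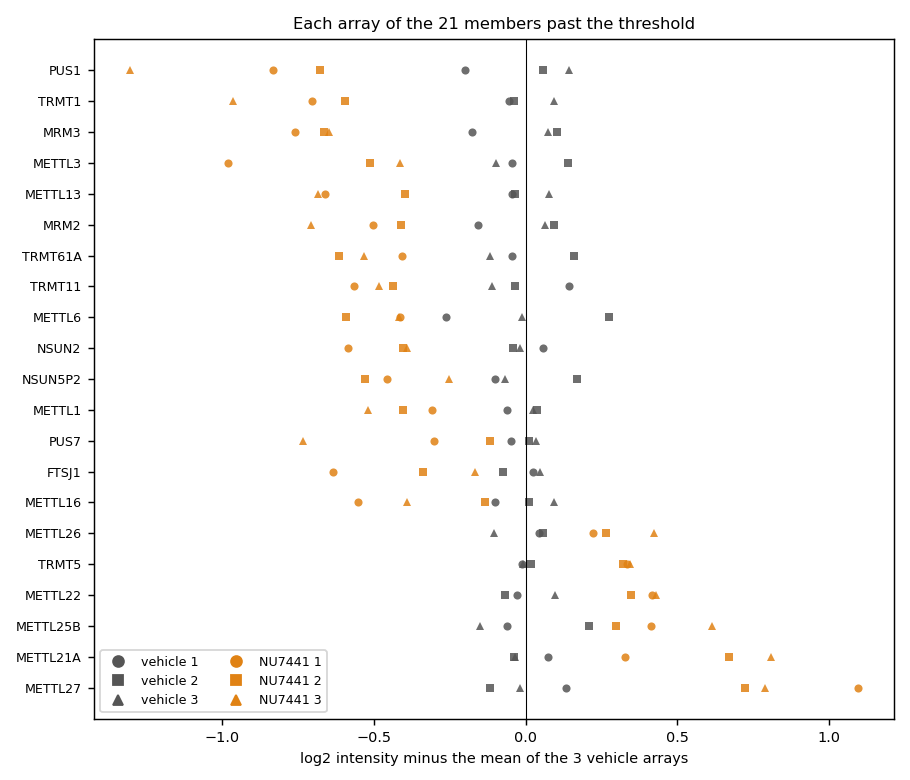
Log2 intensity of each array minus the mean of the 3 vehicle arrays (horizontal axis) for the 21 members past the threshold (vertical axis). Grey marks are vehicle and orange marks NU7441, with the shape giving the replicate. Orange marks lie wholly to 1 side of the grey marks in each of the 21 genes. NU7441 replicate 3 is the lowest array for PUS1, TRMT1, PUS7, METTL1, MRM2 and METTL13.

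Of 8 mitochondrial RNA methyltransferases tested, 2 were lower and 0 higher. The 25% called lower stood near the 19.7% of all genes, and 25% called in either direction stood below the 38.5% of all genes. MRM3, which methylates a ribose of the mitochondrial large rRNA, read 7.46, 7.74 and 7.71 with vehicle and 6.88, 6.98 and 6.99 with NU7441. MRM2, which methylates the neighbouring uridine, read 5.52, 5.77 and 5.74 with vehicle and 5.17, 5.26 and 4.97 with NU7441. In both genes every NU7441 array was below every vehicle array. MRM3 changed by -0.69 ± 0.12 (adjusted p = 0.000268) and MRM2 by -0.54 ± 0.12 (adjusted p = 0.00254). METTL17, a mitochondrial ribosome assembly factor, stood at the threshold, with -0.30 ± 0.11 (adjusted p = 0.0512) and arrays that did not overlap. It was at an adjusted p of 0.0473 without NU7441 replicate 1 and of 0.00954 with 75th percentile scaling. Without vehicle replicate 1, 2 or 3 its adjusted p was 0.0955, 0.162 and 0.092. A dimmer METTL17 probe was at -0.07 (adjusted p = 0.721 over all detected probes), and the mean of both probes at -0.18 (adjusted p = 0.202). TRMT10C, a subunit of mitochondrial RNase P that also methylates tRNA, was at -0.20 ± 0.15 (adjusted p = 0.289), and at -0.38 (adjusted p = 0.023) without NU7441 replicate 3. The nuclease subunit PRORP of that complex was at -0.64 (adjusted p = 0.000448), and HSD17B10, the third subunit, at -0.27 (adjusted p = 0.0776). METTL15 and NSUN4, enzymes of the mitochondrial small rRNA, were at -0.08 and 0.13. The tRNA enzymes NSUN3 and TRMT61B were at 0.03 and 0.19, and none of these 4 passed. NSUN3 changed sign without vehicle replicate 3 or NU7441 replicate 2 or 3.

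Besides METTL5, described above, NSUN5 and FTSJ3 act on nuclear-encoded rRNA, and both missed the limma threshold, with 0 of these 2 at an unadjusted p below 0.05. NSUN5, which methylates a cytosine of 28S rRNA, was at -0.03 ± 0.11 (adjusted p = 0.864) with arrays from 6.43 to 6.60 in vehicle and 6.43 to 6.57 in NU7441. FTSJ3, a nucleolar ribose methyltransferase, was at -0.16 ± 0.13 (adjusted p = 0.343). NSUN5 was at 0.00 without vehicle replicate 3 and at 0.02 without NU7441 replicate 2. Its 2 dimmer probes were at -0.31 and -0.26 and did not pass either (adjusted p = 0.0568 and 0.135 over all detected probes). The pseudogene NSUN5P2 was at -0.41 ± 0.12 (adjusted p = 0.0138), and missed the threshold without vehicle replicate 2 (adjusted p = 0.0804) or NU7441 replicate 2 (adjusted p = 0.0598). A second NSUN5P2 probe was at -0.31 (adjusted p = 0.0941 over all detected probes). NSUN5P1 was at -0.27 ± 0.11 (adjusted p = 0.0675).

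Among the 9 METTL genes with protein substrates or none assigned, 5 were higher and 1 was lower, where 18.7% of all genes were higher and 19.7% lower. METTL27, whose substrate is not assigned, read 6.24, 5.99 and 6.09 with vehicle and 7.20, 6.83 and 6.90 with NU7441. It made the largest rise of the members, 0.87 ± 0.13 (adjusted p = 7.89e-05). METTL21A, which methylates a lysine of HSP70 chaperones, read 9.17, 9.06 and 9.06 with vehicle and 9.42, 9.77 and 9.90 with NU7441. Its arrays did not overlap and the change was 0.60 ± 0.13 (adjusted p = 0.00184). The 2 dimmer METTL21A probes pointed the other way, at -0.28 and -0.30 (adjusted p = 0.0917 and 0.127 over all detected probes), and the mean of its probes was at 0.01 (adjusted p = 0.965). The rise of METTL21A was seen with its brightest probe alone.

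METTL25B read 5.02, 5.29 and 4.93 with vehicle and 5.49, 5.38 and 5.69 with NU7441, a change of 0.44 ± 0.13 (adjusted p = 0.0125), and its adjusted p was 0.0697 without vehicle replicate 3. METTL22, a lysine methyltransferase of the DNA- and RNA-binding protein KIN17, read 5.28, 5.24 and 5.40 with vehicle and 5.72, 5.65 and 5.73 with NU7441, a change of 0.40 ± 0.11 (adjusted p = 0.00927). METTL22 kept a clear gap between the groups, while METTL25B and the next gene were closer. METTL26 read 6.12, 6.14 and 5.97 with vehicle and 6.30, 6.34 and 6.50 with NU7441, a change of 0.30 ± 0.11 (adjusted p = 0.0442), and its second probe was at -0.16. METTL26 missed the threshold without vehicle replicate 1, 2 or 3 (adjusted p = 0.0816, 0.0727 and 0.166), without NU7441 replicate 2 or 3 (0.0724 and 0.1), and with the replicate block (0.0663). It was at 0.07 as the mean of its detected probes (adjusted p = 0.594) and at 0.22 with 75th percentile scaling (adjusted p = 0.174).

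METTL13, which methylates the translation factor eEF1A, was the group's fall outside the pseudogenes. It read 7.65, 7.66 and 7.77 with vehicle and 7.03, 7.30 and 7.01 with NU7441, all lower. The change was -0.58 ± 0.12 (adjusted p = 0.00117), with a second probe at -0.39 (adjusted p = 0.0443 over all detected probes). METTL23, a histone arginine methyltransferase, was at 0.26, METTL25 at 0.20 and METTL18, which methylates a histidine of ribosomal protein uL3, at -0.12, and none passed. The sign of METTL18 turned without vehicle replicate 3, at 0.01.

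The 11 named members that were not tested were METTL21C, METTL2B, METTL8, METTL9, MRM1, NSUN7, PUS10, TRMT10A, TRMT2A, TRMT2B and TRMT9B. Their best probe was detected on 0 to 4 of 6 arrays without covering a whole group, which gives them a bound near background and no direction. TRMT10A and TRMT2B reached 4 arrays, and METTL8, NSUN7, PUS10 and TRMT9B were detected on none. Of the 45 tested, 12 had further detected probes, 15 in all, of which 12 shared the sign of the brightest. For members that passed, 5 of 8 further probes shared the sign and 2 passed on their own over all detected probes, 1 each of PUS1 and METTL13.

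The changes of 2 genes were compared by their difference for 4 pairs chosen after the values were seen, of which 3 are partner subunits and PUS1 with PUS7 a pair of separate synthases. Each gene was read by its brightest probe alone. The change of METTL3 minus that of METTL14 was -0.43 (two-sided exact permutation p = 0.1, adjusted 0.133), METTL1 minus WDR4 was 0.89 (exact p = 0.1, adjusted 0.133) and PUS1 minus PUS7 was -0.55 (exact p = 0.1, adjusted 0.133). In these 3 pairs the arrays of the groups did not overlap, and 0.1 is the smallest p that 3 against 3 arrays allow. TRMT61A minus TRMT6 was -0.54 (exact p = 0.2), with overlap. This permutation test could therefore not reach 0.05, and no other test of these differences was run.

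Other RNA-modification genes, from 6 lists of 86 genes in all, were read in the same fit, to set the members beside the rest of the pathway. Of 77 tested, 34 were lower and 4 higher, with a median of -0.27. Among the 34, ADAT2, ALKBH8 and TRMU were kept only through the vehicle arrays, where they are higher, a filter that favours falls. The lower and higher shares were 44.2% and 5.19%, against 19.7% and 18.7% of all genes. The rRNA modification list had 9 of 12 lower, or 75%, and 0 higher, with a median of -0.60. FBL, at -0.33 (adjusted p = 0.0424), missed the threshold without vehicle replicate 1, 2 or 3 or NU7441 replicate 2 or 3. NOP58, at -0.37 (adjusted p = 0.021), missed it without vehicle replicate 1 or 3 or NU7441 replicate 1 or 2. NOP2, the nucleolar cytosine methyltransferase also called NSUN1, was at -0.97 ± 0.12 (adjusted p = 1.36e-05), DIMT1, which dimethylates adenosines of 18S rRNA, at -0.91, and EMG1, a pseudouridine methyltransferase, at -0.88. As the mean of its detected probes NOP2 was at -0.67. Earlier results of these data, known when the lists were made, already showed ribosome biogenesis genes lower, so this list is not independent evidence of that direction. Of 11 other pseudouridine enzymes and H/ACA proteins 6 were lower, or 54.5%, and without vehicle replicate 2 that count was 3. DKC1, the synthase of the H/ACA particles, was at -0.89 (adjusted p = 0.000117) and its partner GAR1 at -0.81 (adjusted p = 6.65e-05). TRUB1, a stand-alone synthase, was at -0.48 (adjusted p = 0.00791).

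Of 33 other genes of cytosolic tRNA modification 13 were lower and 3 higher, or 39.4% and 9.09%, against 19.7% and 18.7% of all genes. The 13 include ADAT2 and ALKBH8, detected on 0 and 1 of 3 NU7441 arrays and kept only through the vehicle group. ADAT2, at -0.36, missed the threshold without background correction (adjusted p = 0.072) or without vehicle replicate 3 (adjusted p = 0.0669). THUMPD2, described above as an snRNA enzyme, is also counted in this list and among the 13. After WDR4, the largest falls were those of CDKAL1, a methylthiotransferase of lysine tRNA, at -0.94 (adjusted p = 2.87e-05), and QTRT2, a subunit of the queuosine enzyme, at -0.82 (adjusted p = 7.47e-05). QTRT2 was at -0.60 as the mean of its detected probes. LAGE3, a subunit of the KEOPS complex, WDR6, the partner of FTSJ1 in wobble ribose methylation, and LCMT2, a wybutosine enzyme, were at 0.68, 0.46 and 0.29 and formed the 3 rises, of which LAGE3 was left with 75th percentile scaling. LCMT2 missed the threshold without any 1 of vehicle replicates 1, 2 and 3 or NU7441 replicates 1 and 3. Of 6 other mitochondrial tRNA genes TRMU, PRORP and MTO1 were lower, or 50%, at -0.71, -0.64 and -0.60. TRMU was detected on 2 of 3 NU7441 arrays and kept only through the vehicle group. It was at -0.215 without background correction (adjusted p = 0.0195). Of 6 cap enzymes TGS1, which makes the trimethyl cap, was lower at -0.53, and MEPCE, the capping enzyme of 7SK RNA, was higher at 0.36 (adjusted p = 0.027). For the cap list this is 16.7% in each direction, near the shares of all genes. MEPCE missed the threshold without vehicle replicate 2 or 3 or NU7441 replicate 2 (adjusted p = 0.117, 0.108 and 0.0931).

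**Figure D3:**
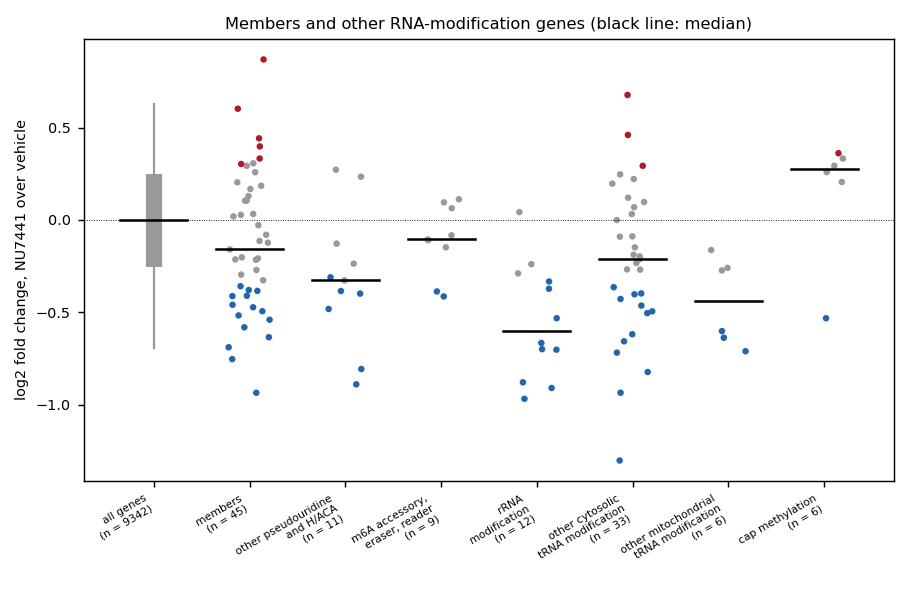
Log2 fold change (vertical axis) of the 45 members and of 6 other lists of RNA-modification genes (points, blue lower, red higher, grey not past the threshold) beside all 9342 genes (thick bar, middle 50% of genes, thin line, middle 90%). Black lines are medians, at -0.16 for the members, -0.60 for rRNA modification and 0.28 for cap methylation.

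The spread of the members was like that of other genes, with a median SD within a group of 0.10 in vehicle and 0.14 in NU7441, against 0.11 and 0.14 over all genes. Of the 21 members that passed, 12 kept their call under every alternative in which they were measured, and none changed direction. These were PUS1, TRMT1, MRM3, METTL3, METTL13, MRM2, TRMT61A, TRMT11, NSUN2, METTL1, METTL27 and METTL22.

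**Figure D4:**
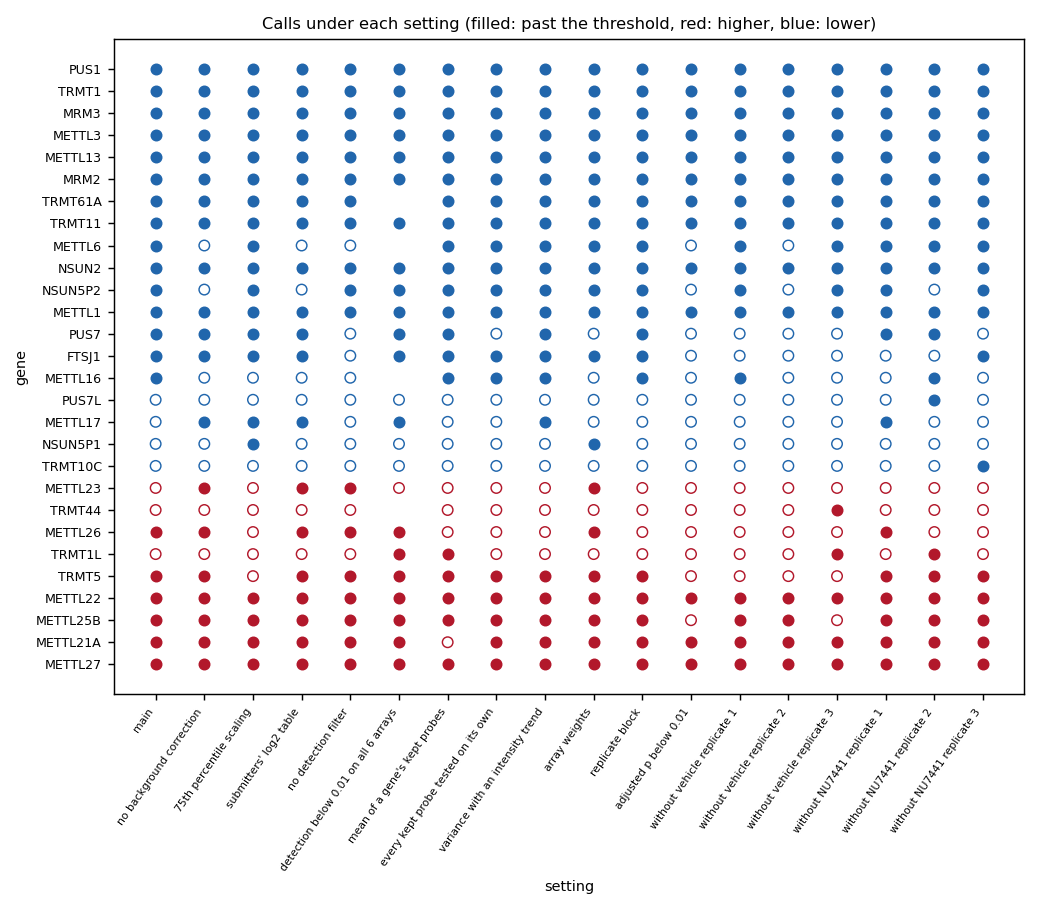
Calls of the 21 members that passed and of 7 that passed in at least 1 alternative (vertical axis) under the main setting and each of 17 alternatives (horizontal axis). Filled circles passed the threshold, open circles did not, red is higher and blue lower, and a gap means that the gene was not measured there. The 12 filled lines belong to genes that kept their call throughout.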

How the data were processed

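RNA of 6 HCT116 samples was read on Illumina bead arrays. The authors deposited, per the file headers, a linear intensity and a detection p-value for each probe, and the intensities had not been brought to 1 scale. Deposited log2 values of these arrays, made by the authors, served as an alternative. They differed from the quantile-normalized log2 signals by at most 0.0612, had a median of 6.22 in each column and were not centred. GenomeStudio, R 3.0.2 and lumi are named in the submitters' processing notes, with settings not given in the sources used here.

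Intensities were background corrected by normexp (negative controls inferred from detection p-values, offset 16), quantile normalized and log2 transformed with limma 3.58.1 in R 4.3.3. The offset shrinks changes of dim probes, but their size also depends on the background correction. Without that correction the dim genes CDKAL1, TYW3 and METTL22 were at -0.29, -0.24 and 0.15, where the main setting gave -0.94, -0.62 and 0.40. Of 47323 probes, 14973 were detected at p below 0.05 on all 3 arrays of a group. The platform annotation gave 1 symbol to 30112 probes, several to 8 and none here to 17203. The brightest detected probe stood for a gene, and 9342 genes were fitted with lmFit and eBayes, group as the only term. The procedure was tested on simulated data.

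The members and lists were chosen with earlier results of these data known. Every tested member was named, with full statistics for the 6 largest rises and falls without overlap and for METTL3, METTL14, PUS1, PUS7, NSUN2 and TRMT112, and up to 3 of each other list. TRMT112 partners, rises of the other lists, partner pairs and promoter motifs were added after values were seen, and the NRF1 letters are 1 base shorter than those first searched, which no member window held. Replicate numbers gave no pairing, since same-numbered arrays' deviations correlated at -0.10, 0.04 and -0.07. Slides are not given in the files, so no slide block was run. Alternatives are given at the end. Figures used Python 3.11.15 and matplotlib 3.10.9.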

Additional observations from a re-analysis of the deposited data

How the results depend on the processing

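Results were recomputed under 17 alternatives, of which 6 leave out 1 array, and 9 members were not measured, and so have 16, with detection below 0.01 on all 6 arrays. The count of members called lower was 10 to 16 and that of members called higher 3 to 7, the lower count being 10 without vehicle replicate 2, and the median of the members stayed between -0.20 and -0.06. At an adjusted p below 0.01, 3 members were higher, and over all genes 1058 were higher and 1220 lower, against 1747 and 1845. With 75th percentile scaling, over all genes 1255 were higher and 2238 lower, or 35.9% higher among the called against 48.6%. The other lists held 4 rises, against 1 with 75th percentile scaling, 7 with array weights, 2 at an adjusted p below 0.01 and 2 to 6 with 1 array left out (2 without vehicle replicate 2 or 3). Replicate numbers did not pair the arrays. With the replicate block, 5 members were higher and 15 lower, and METTL26 was the member that lost its call. Sign changes were seen in 5 members that passed under none of the alternatives. METTL5 was at -0.16 with 75th percentile scaling and TRMT6 at -0.0263 with array weights. With 1 array left out, METTL5 ranged from -0.0654 to 0.165, METTL18 from -0.308 to 0.0105, NSUN3 from -0.157 to 0.259, NSUN5 from -0.0836 to 0.0159 and TRMT6 from -0.0854 to 0.206. The 9 members that lost their call in at least 1 alternative were FTSJ1, METTL16, METTL21A, METTL25B, METTL26, METTL6, NSUN5P2, PUS7 and TRMT5, and the cause was not tested. Without background correction, METTL16, METTL6 and NSUN5P2 were at -0.11, -0.13 and -0.14 (adjusted p = 0.133, 0.0804 and 0.0575). Signal near background limits METTL16, METTL4, METTL6, METTL18, TRMT6 and TRMT44, which were detected on fewer than 3 arrays of 1 group. Each was kept through its other group alone. For METTL16 and METTL6, both called lower, that group was vehicle, where they are higher. TRMT61A was detected on every array, but its NU7441 mean of 4.53 was as low as that of TRMT6, at 4.55.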
